A study of Mus musculus with 6 samples.

Results

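The 35 genes described here serve DNA replication and mitosis. Each was taken by its name, with no cut on a measured value, and all 35 were found by symbol among the 19241 genes of the deposited FPKM table (fragment counts scaled to transcript length and to library size). They were split by function into 13 replication genes (Mcm2 to Mcm7, Pcna, Rrm1, Rrm2, Tyms, Cdt1, Cdc6 and E2f1) and 22 mitotic genes (the others). RNA came from total interscapular brown adipose tissue (iBAT), the brown fat depot between the shoulder blades, of newborn mice. There were 3 WT libraries, from mice whose Fstl1 gene was floxed, and 3 KO libraries, from mice labelled Myf5-Fstl1 KO, a knockout of that gene tied by its name to Myf5. Fstl1 encodes a secreted glycoprotein, and cells with a history of Myf5 expression form skeletal muscle and a large share of this fat, so that the comparison concerns a depot in which some cells carry the deletion and others need not. The labels do not say whether a library came from 1 animal or from several, so that p-values measure the spread between these libraries only.

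The targeted gene Fstl1 was measured at 55.5, 130.04 and 54.4 FPKM (WT replicates 1 to 3), against 7.93, 13.1 and 8.77 FPKM (KO replicates 1 to 3). Sex coincided with genotype: Xist was at 44.8 to 85.5 FPKM in WT and at most 0.92 FPKM in KO, and 4 Y-linked genes were at 7.39 to 99.3 FPKM in KO and at most 0.23 FPKM in WT. Genotype and sex therefore cannot be told apart in any difference below, although all 35 members lie on autosomes. Low values gave an estimate of 13550000 to 14800000 reads for each library. All 8 brown adipocyte markers were detected in every library (Adipoq at 889 FPKM or more, Ucp1 at 1695 FPKM or more, and the lowest, Prdm16, at 1.68 to 5.25 FPKM). They were not level between the groups, as given with the other cell type markers at the end. Muscle markers were present in every library and stood apart in KO replicate 1, where their summed level was 290.2 FPKM against 1173 to 1693 FPKM in the other 5 libraries. In bulk RNA, fewer cells of a type and less RNA per cell cannot be told apart, and this holds for cycling cells too.

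A dividing cell first copies its DNA in S phase and then separates the copies in mitosis. The MCM helicase is loaded on origins by Cdc6 and Cdt1, nucleotides are supplied by ribonucleotide reductase and thymidylate synthase, and the sliding clamp PCNA holds the polymerase on DNA. Mitosis is driven by CDK1 with its A-type and B-type cyclins, by Aurora and Polo kinases and by spindle motors, and it ends when the anaphase-promoting complex marks cyclin B for destruction. Both sets are expressed in cycling cells only or mainly. E2F factors switch on the replication genes at the end of G1. The MuvB complex with B-MYB and FOXM1 switches on the mitotic genes in G2 through CHR elements of their promoters, which often hold CCAAT elements too. The newborn depot is a mixture of maturing brown adipocytes, their precursors, vessels and blood cells, next to muscle.

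The promoters of the 2 groups held different motifs. Of the 35 members, 30 had a promoter window (250 bases before to 50 after a RefSeq transcription start, GRCm38.p6). An E2F match (TTTCCCGC, TTTGGCGC, TTTCGCGC or TTTGCCGC on either strand) was in the windows of 6 of 12 replication genes (Cdc6, Cdt1, Mcm3, Mcm5, Mcm6 and Mcm7) and of 1 of 18 mitotic genes (Cdk1), against 3.87% of the windows of all tested genes and 2.26% of all 32851 windows. The CHR letters TTTGAA, on either strand, were in the windows of 1 replication gene (Mcm2) and 13 mitotic genes (72.2%), against 12.1% of the windows of tested genes and 17.9% of all windows. CCAAT, on either strand, was in the windows of 8 replication and 16 mitotic genes, against 37.4% of all windows. Members were counted by gene, with a match in any window, whereas the shares over all genes are of windows. Matches can share bases, as the 2 E2F matches of Mcm5 do. A match is a description of the letters and not a bound site. For some members the window's start site lies well inside the annotated gene, by 466 bases in E2f1, 442 in Cdc6, 316 in Aurka and 228 or 845 in Mcm7, which has 2 windows. The absence of an E2F match in the E2f1 window says only that these letters are not in it.

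**Figure D1:**
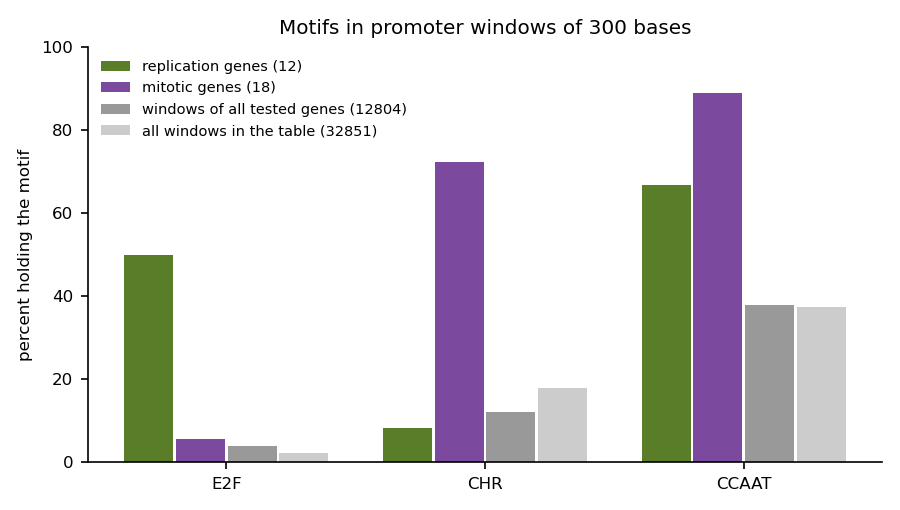
Percent (y axis) that hold an E2F, CHR or CCAAT match (x axis) in promoter windows. For the replication and the mitotic genes it is the percent of genes with a match in any window. For all tested genes and for the whole RefSeq table it is the percent of windows. The E2F bar is highest for the replication genes (6 of 12) and the CHR bar for the mitotic genes (72.2%), while CCAAT is frequent in both.

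Promoter stretches of 4 replication genes show the E2F letters and, in Rrm1, a stretch without a match. Capitals mark E2F, CHR and CCAAT matches; each sequence runs 5′ to 3′ on the gene's strand. Those of Mcm5, Mcm6 and Rrm1 end at or before the annotated start of the gene. The Mcm7 stretch, 30 bases around an E2F match, lies inside the annotated gene (138164583 to 138172111) and upstream only of the window's start site, which is 228 bases into it.
Mcm5 (chr8:75109309-75109467, plus strand): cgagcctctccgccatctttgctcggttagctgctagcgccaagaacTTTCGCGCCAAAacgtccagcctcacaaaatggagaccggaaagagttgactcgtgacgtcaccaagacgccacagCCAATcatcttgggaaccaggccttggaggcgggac
Mcm6 (chr1:128359706-128359905, minus strand): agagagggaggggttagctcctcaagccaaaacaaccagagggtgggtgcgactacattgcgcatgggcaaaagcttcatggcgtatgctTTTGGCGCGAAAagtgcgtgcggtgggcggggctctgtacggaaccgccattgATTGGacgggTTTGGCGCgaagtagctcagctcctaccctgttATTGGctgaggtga
Mcm7 (chr5:138172030-138172059, minus strand): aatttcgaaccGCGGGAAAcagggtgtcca
Rrm1 (chr7:102441495-102441694, plus strand): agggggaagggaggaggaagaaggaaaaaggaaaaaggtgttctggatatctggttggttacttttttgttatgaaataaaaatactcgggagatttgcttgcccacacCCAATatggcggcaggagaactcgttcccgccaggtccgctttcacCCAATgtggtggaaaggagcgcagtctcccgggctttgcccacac

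The stretches upstream of 4 mitotic genes show CHR and CCAAT letters, the last CHR match lying within 30 bases of the start. Cdk1 is shown because it was the 1 member with both E2F and CHR matches, Cdc20 and Ube2c because both serve the anaphase-promoting complex, and Top2a because it is a common proliferation marker.
Cdk1 (chr10:69352913-69353112, minus strand): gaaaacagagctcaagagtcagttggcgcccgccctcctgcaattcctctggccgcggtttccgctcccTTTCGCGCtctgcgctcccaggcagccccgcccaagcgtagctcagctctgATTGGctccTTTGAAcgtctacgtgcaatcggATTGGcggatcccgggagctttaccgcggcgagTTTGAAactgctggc
Cdc20 (chr4:118437344-118437543, minus strand): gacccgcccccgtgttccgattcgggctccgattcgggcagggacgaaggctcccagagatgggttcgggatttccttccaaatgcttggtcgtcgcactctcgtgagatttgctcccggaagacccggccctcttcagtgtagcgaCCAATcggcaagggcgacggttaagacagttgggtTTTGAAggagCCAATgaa
Top2a (chr11:99024200-99024389, minus strand): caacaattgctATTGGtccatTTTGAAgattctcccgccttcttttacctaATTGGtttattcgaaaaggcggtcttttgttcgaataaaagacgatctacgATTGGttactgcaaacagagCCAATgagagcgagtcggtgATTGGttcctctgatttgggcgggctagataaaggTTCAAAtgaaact
Ube2c (chr2:164769729-164769928, plus strand): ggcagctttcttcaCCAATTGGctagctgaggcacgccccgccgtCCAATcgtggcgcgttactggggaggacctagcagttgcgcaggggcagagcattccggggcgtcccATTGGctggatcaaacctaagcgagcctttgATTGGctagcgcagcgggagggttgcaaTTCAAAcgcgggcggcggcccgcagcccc

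Among the replication genes the KO and WT libraries were close in most members, and 3 stood out: E2f1 fell, Rrm1 was lower without passing the test, and Mcm7 was higher without passing it. E2f1 was the 1 member of the 35 past an adjusted p of 0.05, in a comparison where 2.21% of the 13331 tested genes passed (1.01% lower and 1.21% higher in KO). Of the 13 genes, 12 had the mean of 0.5 FPKM needed for testing, and Cdc6 did not. Of these 12, 7 were lower and 5 higher in KO, with a median log2 fold change of −0.08. In 3 of them (E2f1, Rrm1 and Mcm5) all KO libraries were below all WT libraries and in 2 (Mcm7 and Cdt1) all were above, where the groups did not overlap in 24.9% of all tested genes. For comparison, the median over all tested genes was 0.01 and 48.4% of them were lower.

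E2f1 encodes one of the activator E2F factors that switch on replication genes. It was measured at 4.27, 5.37 and 5.05 FPKM (WT replicates 1 to 3), against 2.75, 2.62 and 2.19 FPKM (KO replicates 1 to 3). Every KO library was below every WT library, and the KO mean of 2.52 ± 0.293 FPKM (SD, n = 3) was 51.5% of the WT mean of 4.90 ± 0.566 FPKM. On the log2(FPKM + 1) scale this was a fold change of −0.74 (standard error 0.15, 95% interval −1.09 to −0.40, limma adjusted p 0.0435). An exact two-sided permutation test of 3 libraries against 3 cannot go below 0.1, which is the p it returned here. The direction held in all 16 alternative fits in which E2f1 was tested and the call in 8 of them. Leaving out 1 library ended the call in 5 of 6 cases, where limma's adjusted p was 0.136 (WT replicate 3 left out), 0.183 (WT replicate 2), 0.139 (KO replicate 3), 0.1004 (KO replicate 2) and 0.0982 (KO replicate 1); the replicate block (0.0738), no filter (0.113) and a common FPKM sum (0.0556) ended it too.

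Mcm7 was the 1 subunit of the hexameric MCM helicase that was higher in every KO library than in every WT library. It was measured at 11.6, 13.5 and 12.7 FPKM (WT replicates 1 to 3), against 19.4, 18.8 and 26.1 FPKM (KO replicates 1 to 3). No KO library overlapped the WT libraries, and KO replicate 3 was the highest. Its log2 fold change of 0.71 (standard error 0.16, 95% interval 0.34 to 1.08) had an adjusted p from limma of 0.0625, past the threshold in 3 of 17 alternatives (array weights, the filter at 5 FPKM, and the fit with length and GC trends removed). Those fits called 3181 of 13331, 321 of 8374 and 558 of 13172 tested genes, against 295 of 13331 without these changes. The other 5 subunits lay closer to 0. Their log2 fold changes ran from −0.37 for Mcm2 to 0.06 for Mcm6, with adjusted p of 0.318 to 0.935 in limma.

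Because FPKM is per length, the subunits can be set against each other within a library. Mcm7 was at 3.44, 3.18 and 3.75 times the mean FPKM of Mcm2 to Mcm6 in WT replicates 1, 2 and 3, and at 5.69, 4.97 and 8.15 times that mean in KO replicates 1, 2 and 3. The mean of the other 5 was between 3.21 and 4.24 FPKM in every library, so that the higher ratio in KO went with Mcm7. Within WT the ratio did not follow Mcm7. WT replicate 2 had the highest Mcm7 of the WT libraries but, with a mean of the others of 4.24 FPKM, the lowest ratio. KO replicate 3 had the highest Mcm7 and also the lowest mean of the others (3.21 FPKM). The Mcm7 gene (chromosome 5, 138164583 to 138172111, GRCm38) holds the microRNA genes Mir25, Mir93 and Mir106b in its body and overlaps Ap4m1 by 91 bases. Whether the counting used strand is not given in the sources used here, so that reads in the shared bases cannot be assigned. Ap4m1 itself was at 10.4 to 11.9 FPKM in WT and 12.04 to 13.1 FPKM in KO.

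Mcm2 was measured at 1.56, 3.0 and 2.31 FPKM (WT replicates 1 to 3), against 1.64, 1.39 and 1.49 FPKM (KO replicates 1 to 3). WT replicate 1 was below KO replicate 1, while WT replicate 2 was above all others, and the log2 fold change of −0.37 had an interval of −0.79 to 0.05 (limma adjusted p 0.318). Mcm3 (KO at 90.5% of the WT mean), Mcm4 (103.3%), Mcm5 (84.8%) and Mcm6 (104.0%) overlapped between groups except Mcm5, whose highest KO library, at 1.85 FPKM, was just under the lowest WT library, at 1.88 FPKM.

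Rrm1, the large subunit of ribonucleotide reductase, was measured at 13.8, 14.3 and 12.01 FPKM (WT replicates 1 to 3), against 10.1, 8.0 and 9.06 FPKM (KO replicates 1 to 3). All KO libraries were below all WT libraries, at 67.7% of the WT mean. This log2 fold change of −0.52 (standard error 0.15) had an adjusted p from limma of 0.108. It passed the threshold in 2 of 17 alternatives, array weights (0.00987) and the fit with length and GC trends removed (0.0365). Those fits called 3181 of 13331 and 558 of 13172 tested genes, against 295 of 13331 without these changes. The small subunit, which carries the radical and limits the enzyme through the cycle, is encoded by Rrm2 and was at 3.35 to 4.11 FPKM in WT and 3.0 to 4.25 FPKM in KO. Tyms, thymidylate synthase, was at 6.36 to 8.26 FPKM in WT and 6.35 to 6.77 FPKM in KO. Rrm1 thus differed from Rrm2 and Tyms in having no overlap between groups; the difference between the genes was not tested.

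The licensing factors and the clamp gave no call. Cdt1, which loads the MCM helicase together with Cdc6, was measured at 1.58, 1.37 and 1.67 FPKM (WT replicates 1 to 3), against 1.85, 2.08 and 1.99 FPKM (KO replicates 1 to 3). The KO libraries were all above the WT libraries, but the log2 fold change of 0.23 had an interval of −0.09 to 0.54 (limma adjusted p 0.409). Cdc6 was the lowest member, at 0.24 to 0.36 FPKM in WT and 0.27 to 0.39 FPKM in KO, which is about 12 to 19 reads per library. Pcna was the highest, at 33.7 to 46.5 FPKM in WT and 39.4 to 43.4 FPKM in KO (log2 fold change 0.12, interval −0.23 to 0.47).

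**Figure D2:**
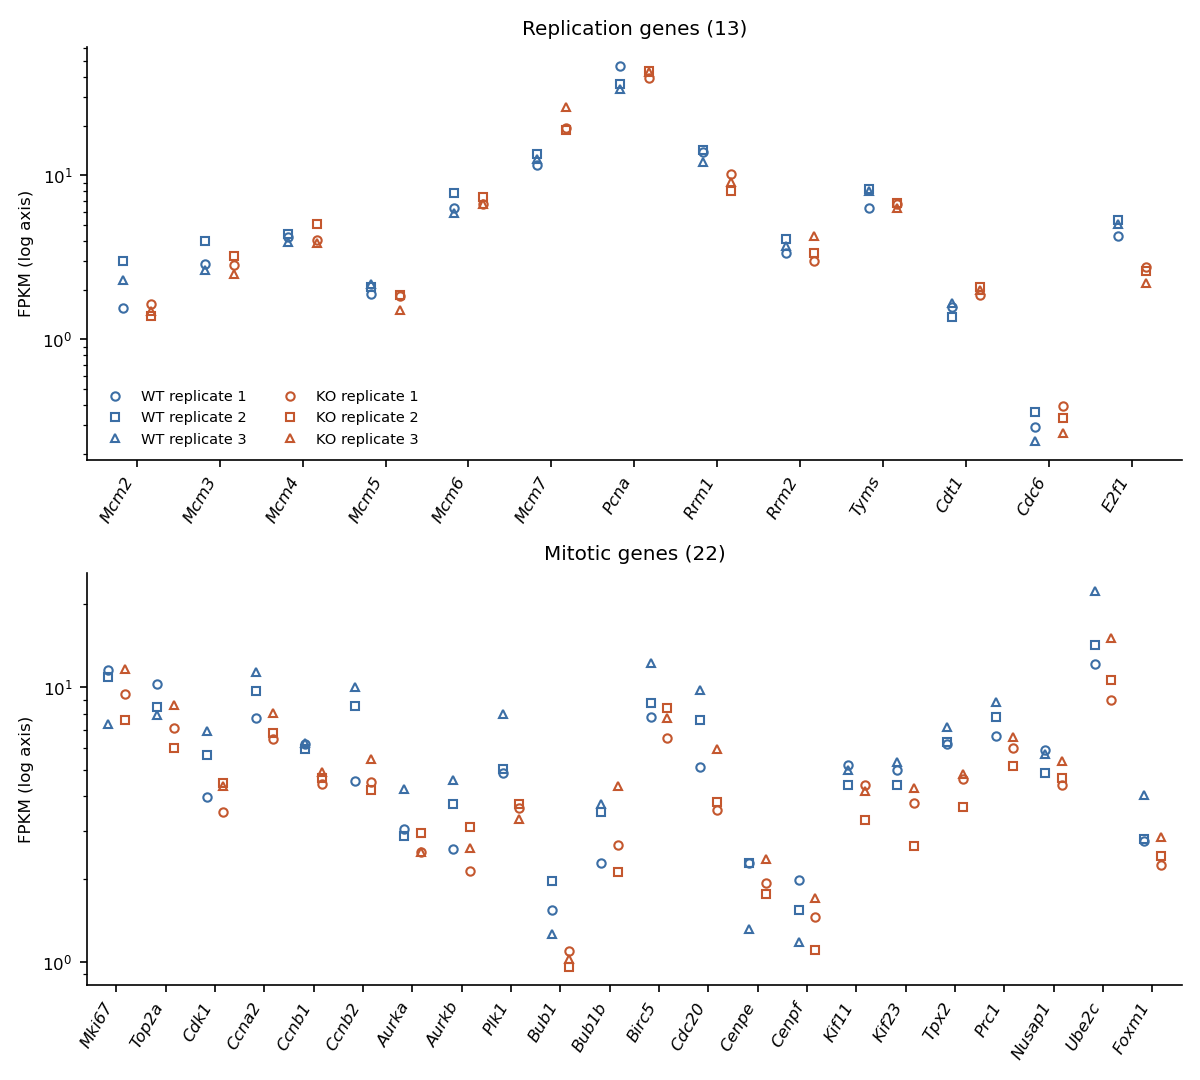
FPKM (log axis) of each member in each library, for the 13 replication genes (upper panel) and the 22 mitotic genes (lower panel); blue symbols are WT, orange symbols KO, and the shape gives the replicate. E2f1 and Rrm1 lie lower and Mcm7 higher in all 3 KO libraries, and in many mitotic genes WT replicate 3 is the highest point.

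The mitotic genes lay lower in KO almost without exception in sign, but none passed the test. Of 22 genes, 21 had a negative log2 fold change and Cenpe (0.04) a positive one, where 48.4% of all tested genes were negative. Their median was −0.33 and their range −0.63 to 0.04. In the alternatives that tested all 22, between 18 (without KO replicate 2) and 22 were lower. In limma 0 of the 22 passed, with a lowest adjusted p of 0.124, and 4 had an unadjusted p under 0.05 (Tpx2, Plk1, Cdc20 and Ccnb1), against 8.6% of all tested genes that were lower in KO at that level. In 6 of the 22 all KO libraries were below all WT libraries and in 0 all were above, where the groups did not overlap in 24.9% of all tested genes (11.4% lower and 13.6% higher in KO). These genes are co-expressed in cycling cells and are not independent of each other, and the 22 share their libraries.

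**Figure D3:**
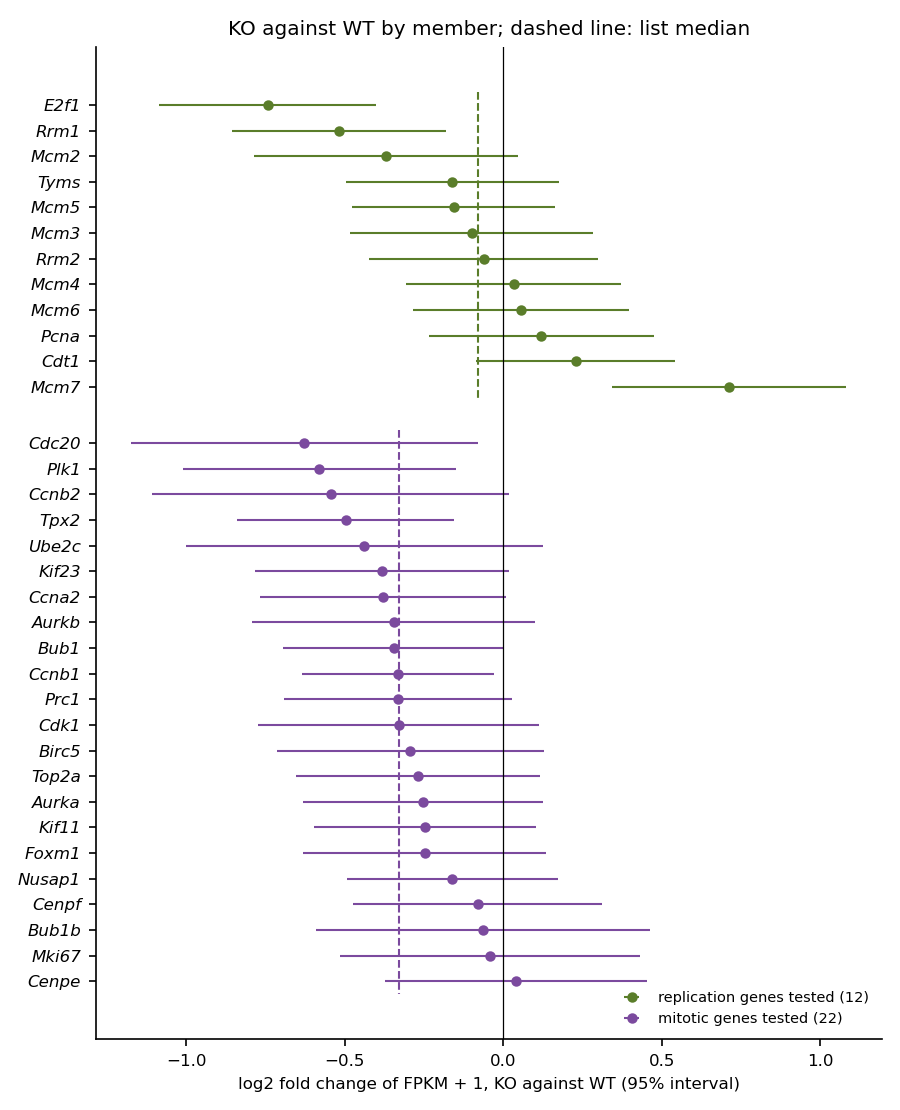
Log2 fold change of FPKM + 1, KO against WT (x axis), for the 12 replication and 22 mitotic genes tested (y axis), with 95% intervals from limma; dashed lines are the list medians (−0.08 and −0.33). The replication genes spread from −0.74 to 0.71 around a median near 0, while 21 of 22 mitotic genes lie below 0.

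The cyclins and Cdk1, the engine of mitotic entry, were all lower. Ccnb1, cyclin B1, was measured at 6.2, 5.94 and 6.26 FPKM (WT replicates 1 to 3), against 4.45, 4.65 and 4.92 FPKM (KO replicates 1 to 3). Its libraries were tight within each group and did not overlap between groups, and the KO mean was 76.2% of the WT mean (log2 fold change −0.33, interval −0.63 to −0.03, limma adjusted p 0.227). Ccnb2, cyclin B2, had a larger difference and a larger spread: 4.53 FPKM in WT replicate 1 but 8.51 and 9.99 FPKM in WT replicates 2 and 3, and 4.22 to 5.48 FPKM in KO (log2 fold change −0.54, limma adjusted p 0.276). Without WT replicate 1 Ccnb2 passed the threshold (log2 fold change −0.84), in a fit that called 370 of 13331 tested genes. Cdk1 (KO at 74.5% of the WT mean) and Ccna2, cyclin A2 (74.0%), overlapped between groups only through WT replicate 1.

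Among the kinases Plk1, the Polo kinase of spindle assembly and mitotic exit, was lowest against WT. It was measured at 4.86, 5.01 and 8.0 FPKM (WT replicates 1 to 3), against 3.62, 3.75 and 3.32 FPKM (KO replicates 1 to 3). The groups did not overlap, and WT replicate 3 was far above the other WT libraries (log2 fold change −0.58, standard error 0.19, limma adjusted p 0.145). Bub1, a kinase of the spindle checkpoint, was measured at 1.54, 1.96 and 1.26 FPKM (WT replicates 1 to 3), against 1.09, 0.96 and 1.02 FPKM (KO replicates 1 to 3), again without overlap (−0.35, limma adjusted p 0.263). Its paralogue Bub1b, the checkpoint protein BUBR1, overlapped widely, with 4.37 FPKM in KO replicate 3 as its highest value (−0.06, interval −0.59 to 0.46). Aurka, the centrosomal Aurora kinase, and Aurkb, the catalytic subunit of the chromosomal passenger complex, were at 78.3% and 71.7% of the WT mean with overlap. Birc5, the survivin subunit of that complex, was at 78.7%.

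Tpx2 had the smallest p of the mitotic genes. It encodes the microtubule protein that activates Aurora A on the spindle. It was measured at 6.21, 6.31 and 7.13 FPKM (WT replicates 1 to 3), against 4.63, 3.66 and 4.81 FPKM (KO replicates 1 to 3), with no overlap. The KO mean was 66.7% of the WT mean (log2 fold change −0.50, standard error 0.15, interval −0.84 to −0.15, limma adjusted p 0.124). All 5 spindle motors and microtubule proteins were lower, by −0.16 for Nusap1 to −0.50 for Tpx2, and in Kif23, the motor of the central spindle, and Prc1, the bundler of its microtubules, the groups also did not overlap, in Prc1 by the margin between 6.6 FPKM (KO replicate 3) and 6.63 FPKM (WT replicate 1). The Prc1 gene overlaps Rccd1 over 21669 bases, where reads cannot be assigned without strand. Kif11, the motor that pushes the spindle poles apart, was at 4.39 FPKM in both WT replicate 2 and KO replicate 1, and the pseudogenes Gm8663 and Gm46649 overlap its locus by 1157 and 462 bases. Shorter overlaps with a neighbour touch Ccna2 (863 bases), Foxm1 (377), Aurka (242), Nusap1 (208), Cdc20 (53) and E2f1 (7).

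The anaphase-promoting complex is represented by its activator Cdc20 and its ubiquitin-conjugating enzyme Ube2c. Cdc20 was measured at 5.11, 7.56 and 9.72 FPKM (WT replicates 1 to 3), against 3.57, 3.81 and 5.93 FPKM (KO replicates 1 to 3). It had the most negative log2 fold change of the mitotic genes (−0.63, standard error 0.24), but KO replicate 3 was above WT replicate 1, and the adjusted p from limma was 0.205. Ube2c had the same lowest and highest library, from 9.0 FPKM in KO replicate 1 to 22.3 FPKM in WT replicate 3 (−0.44, limma adjusted p 0.376).

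Of the common proliferation markers, Mki67 lay above the median of the mitotic genes (−0.33), with only Cenpe higher, and Top2a lay close to that median. Mki67, which encodes the Ki-67 antigen, was measured at 11.5, 10.9 and 7.33 FPKM (WT replicates 1 to 3), against 9.39, 7.59 and 11.7 FPKM (KO replicates 1 to 3). Its highest and its lowest library were KO replicate 3 and WT replicate 3, whereas WT replicate 3 was the highest library in 14 of the 22 mitotic genes. The log2 fold change of Mki67 was −0.04 with an interval of −0.51 to 0.43, which holds the median of the mitotic genes. Top2a, topoisomerase II alpha, was measured at 10.3, 8.49 and 7.91 FPKM (WT replicates 1 to 3), against 7.1, 6.01 and 8.58 FPKM (KO replicates 1 to 3) (−0.27, limma adjusted p 0.426). The kinetochore genes Cenpe (0.04) and Cenpf (−0.08) lay near 0 as Mki67 did. Foxm1, the transcription factor of the mitotic programme, was measured at 2.75, 2.8 and 4.03 FPKM (WT replicates 1 to 3), against 2.25, 2.43 and 2.84 FPKM (KO replicates 1 to 3) (−0.25, interval −0.63 to 0.13, limma adjusted p 0.460).

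Taking each list by library shows where the difference between them sits. The mean deviation of log2(FPKM + 1) from the 6-library mean, over the 22 mitotic genes, was 0.03, 0.15 and 0.28 in WT replicates 1, 2 and 3 and −0.21, −0.24 and −0.01 in KO replicates 1, 2 and 3. The WT libraries were all above the KO libraries, but WT replicate 1 and KO replicate 3 lay next to each other. Over the 12 replication genes it was −0.03, 0.14 and 0.004 in WT and −0.05, −0.02 and −0.05 in KO, where only WT replicate 2 stood out. The median of the replication genes minus that of the mitotic genes was 0.25. Leaving out WT replicate 3 gave 0.14 and leaving out WT replicate 2 gave 0.34; it was 0.11 with array weights and 0.39 with the filter at 5 FPKM, and it was above 0 in all 17 alternatives. Without WT replicate 2 the replication median was 0.015. The alternatives reuse the same libraries. Taken library by library, the difference of the list medians had an SD of 0.188 within groups, and the groups overlapped in it. In WT replicate 2 the median deviation was 0.161 for replication genes and 0.138 for mitotic genes. In KO replicate 3 it was −0.118 and −0.026, so that WT replicate 2 lay above KO replicate 3 in this difference.

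**Figure D4:**
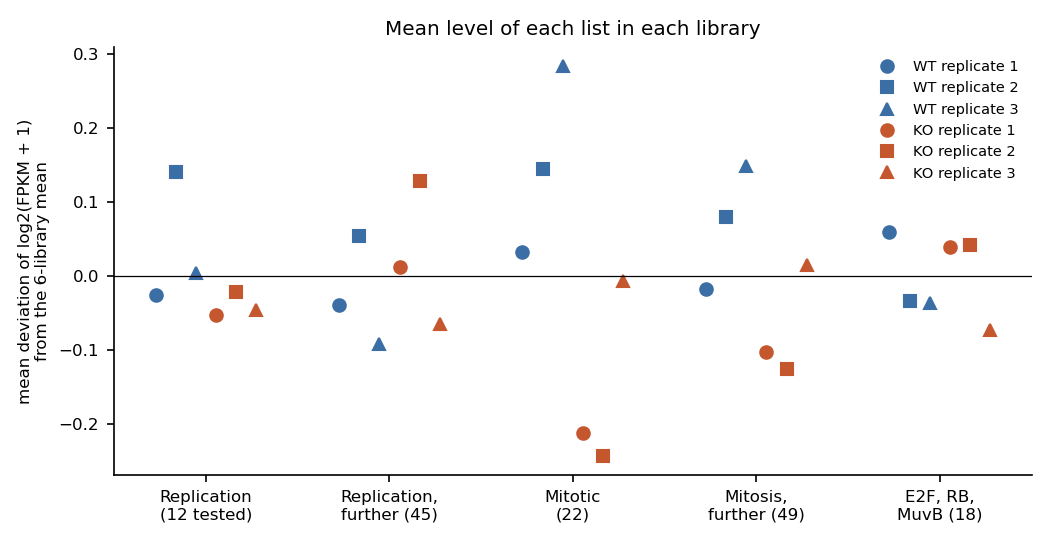
Mean deviation of log2(FPKM + 1) from the 6-library mean (y axis) in each library for the replication genes, further replication genes, mitotic genes, further mitosis genes and E2F, RB and MuvB regulators (x axis; tested genes in brackets). Mitotic genes are highest in WT replicate 3 (0.28) and lowest in KO replicate 2 (−0.24), while the replication genes differ little beyond WT replicate 2 (0.14).

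WT replicate 3 was the highest library in 14 of the 22 mitotic genes, and its values moved with transcript length. Across the 22 genes its deviation correlated with log2 transcript length at r = −0.85, and that of KO replicate 1 at r = 0.80; the genes share a library and are not replicates. Short transcripts such as Ube2c, Ccnb2, Cdc20 and Plk1 were high in WT replicate 3, and the long Cenpe, Cenpf and Mki67 were lower there than in the other WT libraries. Over all 13172 tested genes with a length, WT replicate 3 had a median deviation of 0.155 in transcripts up to 1 kb and −0.295 in those over 8 kb, and WT replicate 1 ran the other way (−0.181 and 0.14). KO replicate 1 changed less with length over these genes (−0.058 and 0.065). The correlation over all these genes was −0.261 in WT replicate 3, 0.235 in WT replicate 1 and 0.105 in KO replicate 1, weaker than over the mitotic genes. In a fit with each library's trend with length and GC content removed, chosen after seeing the data, all 22 mitotic genes were lower in KO. Their median was −0.40 and the replication median was −0.10. The members past the threshold were E2f1 (−0.64, limma adjusted p 0.0323), Mcm7 (0.75, 0.0322) and Rrm1 (−0.63, 0.0365). This fit called 558 of the 13172 genes, against 295 of 13331 without the removal. The mean deviation of the mitotic genes was then 0.004, 0.14 and 0.40 in WT replicates 1 to 3. It was −0.24, −0.30 and −0.003 in KO replicates 1 to 3. WT replicate 3 was still the highest library, and WT replicate 1 and KO replicate 3 were nearly level.

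**Figure D5:**
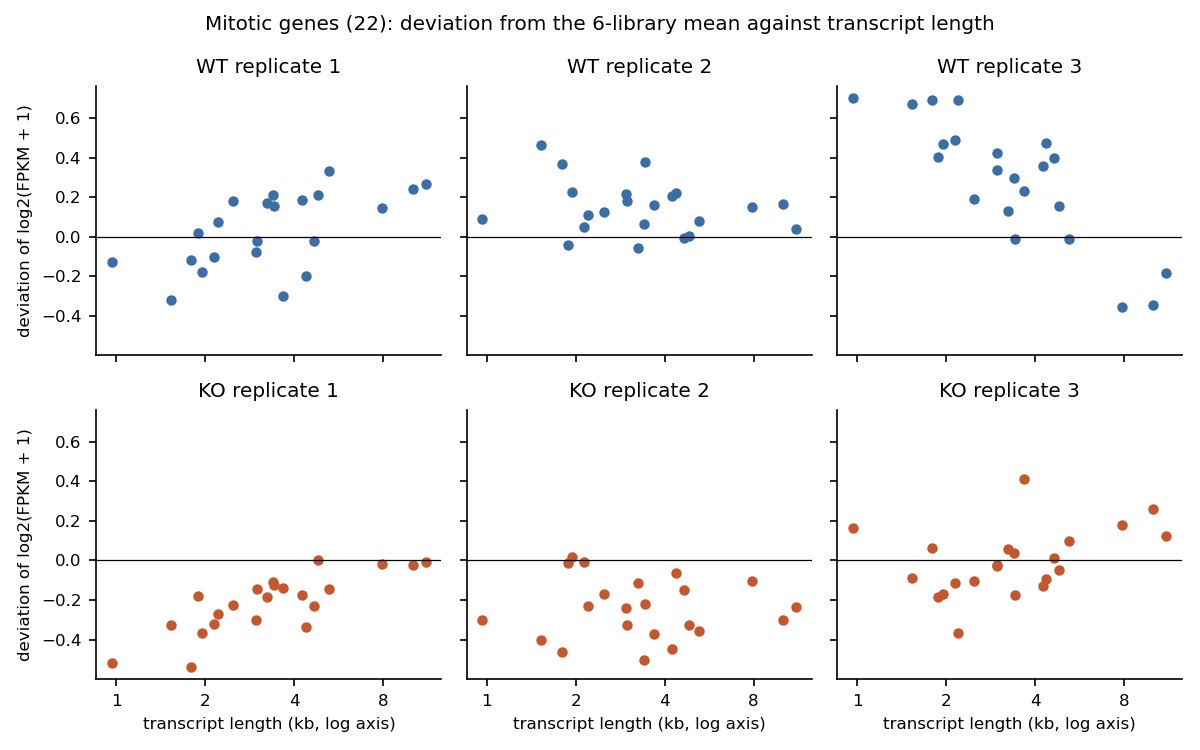
Deviation of log2(FPKM + 1) from the 6-library mean (y axis) against transcript length in kb (x axis, log scale) for the 22 mitotic genes, 1 panel per library. Points fall with length in WT replicate 3 (r = −0.85) and climb with it in KO replicate 1 (r = 0.80) and WT replicate 1 (r = 0.60).

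Further genes of both processes were listed beside the members. Of 46 further replication genes (origin recognition, GINS, polymerases, clamp loader, nucleotide enzymes and others), 45 were tested, 18 lower and 27 higher, with a median of 0.04. In limma 0 passed, and 0 lower and 1 higher had an unadjusted p under 0.05, against 8.6% of all tested genes lower and 10.6% higher at that level. That gene was Gins4, a subunit of the replicative helicase, with 18.3, 17.3 and 21.05 FPKM (WT replicates 1 to 3) against 28.15, 23.5 and 23.3 FPKM (KO replicates 1 to 3) (log2 fold change 0.38, limma adjusted p 0.203). Prim1, the primase subunit, was next, with 5.81, 5.36 and 4.02 FPKM (WT replicates 1 to 3) against 4.58, 3.34 and 2.48 FPKM (KO replicates 1 to 3) (−0.46, limma adjusted p 0.272). Of 49 further mitosis genes, 39 were lower and 10 higher, with a median of −0.16. In limma 0 of these passed, and 10 lower and 2 higher had an unadjusted p under 0.05, against the same 8.6% and 10.6% of all tested genes. Smc4, a condensin subunit, was higher in KO, with 16.1, 15.6 and 10.6 FPKM (WT replicates 1 to 3) against 22.2, 22.9 and 21.6 FPKM (KO replicates 1 to 3) (0.64, limma adjusted p 0.0941). Cdc25b, the phosphatase that activates CDK1, was lower, with 3.28, 3.37 and 4.93 FPKM (WT replicates 1 to 3) against 2.06, 2.42 and 2.54 FPKM (KO replicates 1 to 3) (−0.53, limma adjusted p 0.145). Among these 49, 14 had all KO libraries below all WT libraries and 3 the reverse, against 11.4% and 13.6% of all tested genes; among the 45 replication genes the counts were 0 and 5.

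Regulators of the 2 programmes were split. Of 18 E2F, RB and MuvB genes, 9 were lower and 9 higher, with a median of 0.00; 0 passed in limma, and 4 lower and 4 higher had an unadjusted p under 0.05, against 8.6% and 10.6% of all tested genes. E2f2, another activator E2F, was measured at 5.27, 8.53 and 10.03 FPKM (WT replicates 1 to 3), against 3.45, 4.8 and 2.21 FPKM (KO replicates 1 to 3). Every KO library was below every WT library, and the log2 fold change was −0.997 (standard error 0.27, limma adjusted p 0.0917). E2f3, the remaining activator E2F, was at 2.82 to 4.03 FPKM in WT and 2.75 to 3.75 FPKM in KO (−0.01). Rbl2, the pocket protein p130 of quiescent cells, was higher, with 8.21, 6.91 and 7.32 FPKM (WT replicates 1 to 3) against 11.15, 10.1 and 12.45 FPKM (KO replicates 1 to 3) (0.53, limma adjusted p 0.0985).

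Markers of the cell types in the depot are given beside these results. Of the 8 brown adipocyte markers, 5 were lower and 3 higher in KO. Plin1, the perilipin of lipid droplets, fell (log2 fold change −1.36, limma adjusted p 0.0267). Ucp1, the uncoupling protein (−1.08, limma adjusted p 0.0804), and Prdm16, a regulator of brown fat identity (−0.87, limma adjusted p 0.052), did not pass, although all KO libraries were below all WT libraries in both. All 8 skeletal muscle markers had negative log2 fold changes (median −0.66) and 0 passed. Their sum was low in KO replicate 1 only (290.2 FPKM). KO replicates 2 and 3, at 1298 and 1587 FPKM, lay within the WT range of 1173 to 1693 FPKM. Macrophage markers were higher in KO in 8 of 8 genes (summed level 118.8 to 175.6 FPKM in WT, 163.1 to 226.1 FPKM in KO; 0 passed). Erythroid markers summed to 8276 FPKM in WT replicate 3, the library with the highest mitotic genes, against 1649 to 2808 FPKM in the other 5, carried by the haemoglobin genes Hba-a1 and Hba-a2, while Klf1 was under 0.5 FPKM everywhere. Myogenic precursor markers summed to 4.34 to 5.82 FPKM in WT and 0.41 to 3.58 FPKM in KO, lowest in KO replicate 1, with Myf5, Pax7 and Pax3 under 0.5 FPKM everywhere. Markers of adipocyte precursors and fibroblasts summed to 309.2 to 339.5 FPKM in WT and 301.5 to 385.2 FPKM in KO. The largest part was Dlk1, at 138.7 to 171.6 FPKM in WT and 133.7 to 188.6 FPKM in KO. Of these markers 4 were lower and 4 higher. Ly6a was higher and passed the threshold (log2 fold change 0.99, limma adjusted p 0.0332). Ebf2 was lower without passing (−1.09, limma adjusted p 0.0917), although all KO libraries were below all WT libraries. Lymphoid and leukocyte markers summed to 2.74 to 3.22 FPKM in WT and 3.53 to 5.26 FPKM in KO, with 5 of 7 under 0.5 FPKM everywhere, and endothelial markers to 447.3 to 543.0 FPKM in WT and 455.1 to 518.1 FPKM in KO. The part of these cell types in the differences of the replication and mitotic genes was not tested.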

How the data were processed

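The deposited table gives FPKM values of 6 libraries, rounded by the authors to 2 decimals, per the file headers. The submitters' processing notes name HISAT2 2.0.4, Bowtie2 2.2.5, DESeq2 and the build mm10, without their roles; the counter, annotation version and strand handling are not given in the sources used here. FPKM are not counts, so limma 3.58.1 (R 4.3.3; lmFit, then eBayes with a trend, no covariate) compared KO with WT on log2(FPKM + 1) over the 13331 genes whose mean reached 0.5 FPKM, with Benjamini-Hochberg adjustment over all of them at 0.05 and no minimum fold. Fold changes are on the log2(FPKM + 1) scale, which understates low genes. The script was tested on simulated data.

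No measured value enters the rule for the members, but the members, the further gene lists and the marker lists were all chosen with earlier results of these data known. The genes given with their values in every library were those past the threshold, the 5 smallest p of each list, and E2f1, Foxm1, Mki67 and Top2a; of each further list, the 2 smallest p. Depth was estimated from whole-read steps in single-transcript genes of 500 to 1300 nt; 77.1% to 80.7% of the values used lay within 0.2 of a whole read. Promoters and coordinates came from RefSeq (GRCm38.p6, the assembly of mm10), transcript lengths from GENCODE. Alternatives were 2 pseudocounts, 2 filters, 3 scalings, eBayes without the trend, array weights, a replicate block, leaving out each library and, chosen after seeing the data, removal of length and GC trends.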

Additional observations from a re-analysis of the deposited data

How the results depend on the processing

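Of 295 genes past the threshold (134 lower, 161 higher in KO), 35 were left without a filter, 191 with a common FPKM sum, 167 with the replicate block, 3181 with array weights (which gave WT replicate 2 a weight of 6.70) and 558 with length and GC trends removed. Leaving out 1 library gave 31 (without WT replicate 3) to 370 (without WT replicate 1). Members past the threshold numbered 0 without a filter, with a common sum and with the replicate block, 3 with trends removed, 14 with array weights, and 0 to 2 without 1 library. The filter at 5 FPKM called 1 member, Mcm7, where E2f1 was no longer tested. The replication median was 0.056 with that filter, which leaves 5 of its genes, and −0.187 with array weights; leaving out 1 library it ran from −0.132 to 0.015. The mitotic median ran from −0.402 to −0.228 over all 17 alternatives, and the difference of the medians from 0.107 to 0.387. Signs turned only in the members named next. Mcm4 was at −0.022 with quantile normalization, −0.036 with array weights and −0.055 with trends removed, Cenpe at −0.006, −0.111 and −0.114, and Mcm6 at −0.124 with array weights. Leaving out 1 library, Mcm3 ran from −0.187 to 0.034, Mcm4 from −0.064 to 0.095, Mcm6 from −0.02 to 0.156, Rrm2 from −0.172 to 0.024, Mki67 from −0.225 to 0.097, Bub1b from −0.285 to 0.106, Cenpe from −0.128 to 0.124 and Cenpf from −0.193 to 0.033. The causes of these changes between settings were not tested. Deviations of same-numbered libraries correlated at 0.0681, 0.0433 and 0.0433, under 0.1, so the numbers were not taken as pairs. Every library nevertheless correlated best with its own number, which is a hint from the data and not from the design. At this depth Cdc6 rested on 12 to 19 reads per library, too few to show a moderate difference.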
